A study of Macaca mulatta with 10 samples.

Results

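Type I interferons are cytokines that cells release when they sense viral nucleic acid. They bind a receptor shared by nearly all cells, and the kinases JAK1 and TYK2 then act on transcription factors, STAT2 among them, which switch on a large set of antiviral genes. In lymph nodes these genes are used as a readout of how much interferon the tissue has met, and earlier work on social adversity has treated them as a group of interest. Described here are 47 such genes, chosen by symbol from a list of interferon-stimulated antiviral genes, of which 45 were among the 18622 gene symbols of the deposited table. USP18, which removes ISG15 from proteins, and DDX60, a helicase that assists RNA sensing, were not listed under these symbols.

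The lymph nodes came from 10 male rhesus macaques, 5 housed under unstable and 5 under stable social conditions, with 1 array for each animal. No genotype, treatment or infection status is given for either group. An age is given without a unit: 6.7 to 6.84 for unstable animals 1 to 3, 5.62 and 5.61 for unstable animals 4 and 5, and 5.73 to 5.87 for the stable animals. Unstable animals 1 to 3 shared slide 1 with stable animal 5, unstable animals 4 and 5 were on slide 3, and stable animals 1 to 4 were on slide 2, so only slide 1 held both groups, and there every unstable animal was an older one. The Illumina bead arrays carry probes designed on human transcripts, so a sequence difference between the species can lower a signal, and a value below background does not show that a gene was silent. Values are log2 signal as deposited, on a scale where arrays have nearly the same distribution.

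Among marker genes of the tissue, 5 of 8 measured B cell genes, 7 of 8 T cell genes and all 4 lymph node stroma genes were above background on all 10 arrays. MS4A1, BLK, PAX5 and TRAT1 were above background on none. Median intensity per array lay between 104 and 119. One array has to be named before the results, because many interferon-stimulated genes were highest in it: that of stable animal 3. Differences that moved by over 1.5 times, or turned, without it are given with and without it for the genes described.

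The first question was which of the genes gave a usable signal. A value was called above background when it exceeded the array's most frequent log2 value by 3 SDs of the values below it, which put the threshold at 6.90 on all arrays. By this rule 22 of the 45 measured genes (48.9%) were above background on all 10 arrays, against 34.3% of all genes, and 28 were above it on 3 or more arrays, against 44.7%. Another 11 were above it on 1 to 9 arrays. The remaining 12 were above it on no array, against 49.3% of all genes, with values between 6.42 and 6.90.

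Genes of the same function often fell on both sides of this line. MX1, a dynamin-like GTPase that blocks incoming viral particles, was above background on all 10 arrays, and its relative MX2, which restricts lentiviruses, was above it on none. Of the IFIT proteins, which bind foreign RNA ends, IFIT1 was above background on 10 arrays, IFIT5 on 1, and IFIT2 and IFIT3 on none. Among the 2'-5' oligoadenylate synthetases, which activate the RNA-cutting enzyme RNase L, OAS2 was above background on 10 arrays, OASL, a relative that lacks this activity in humans, on 5, OAS1 on 4 and OAS3 on none. HERC5, the main ligase that attaches ISG15 to proteins in human cells, was above background on 10 arrays, ISG15 itself on 9 and HERC6 on none. Of the interferon-induced membrane proteins, which hinder fusion of virus and cell, IFITM1 and IFITM2 were above background on all arrays and IFITM3 on none. These 3 are near-identical in sequence, and their human symbols could not all be matched to single macaque genes, so values of IFITM2 and IFITM3 are uncertain as to the gene they measure. RSAD2 (viperin), APOBEC3G, SAMD9, SP100, PML and the DNA sensor IFI16 made up the rest of those above background on no array.

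In a RefSeq table of macaque genes, several of the measured genes are next to each other on the chromosome, and being neighbours did not go with a shared signal in every case. MX1 and MX2 have no coding gene between them and correlated at r = -0.20 over the 10 arrays, with MX2 below background throughout. HERC5 and HERC6 are likewise adjacent and correlated at -0.24, again with one of the pair below background. IFI44 and IFI44L, adjacent interferon-induced genes of related sequence, correlated at 0.89, and OAS1 and OAS2, with 2 coding genes between them, at 0.64. IFI44, IFI44L, OAS1 and OAS2 were all highest in stable animal 3, and these r values include that array. IFI44L was above background on 7 arrays and OAS1 on 4. TRIM5 and TRIM22, adjacent genes for antiretroviral ring-finger proteins, correlated at -0.35, with TRIM5 above background on 7 arrays.

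**Figure D1:**
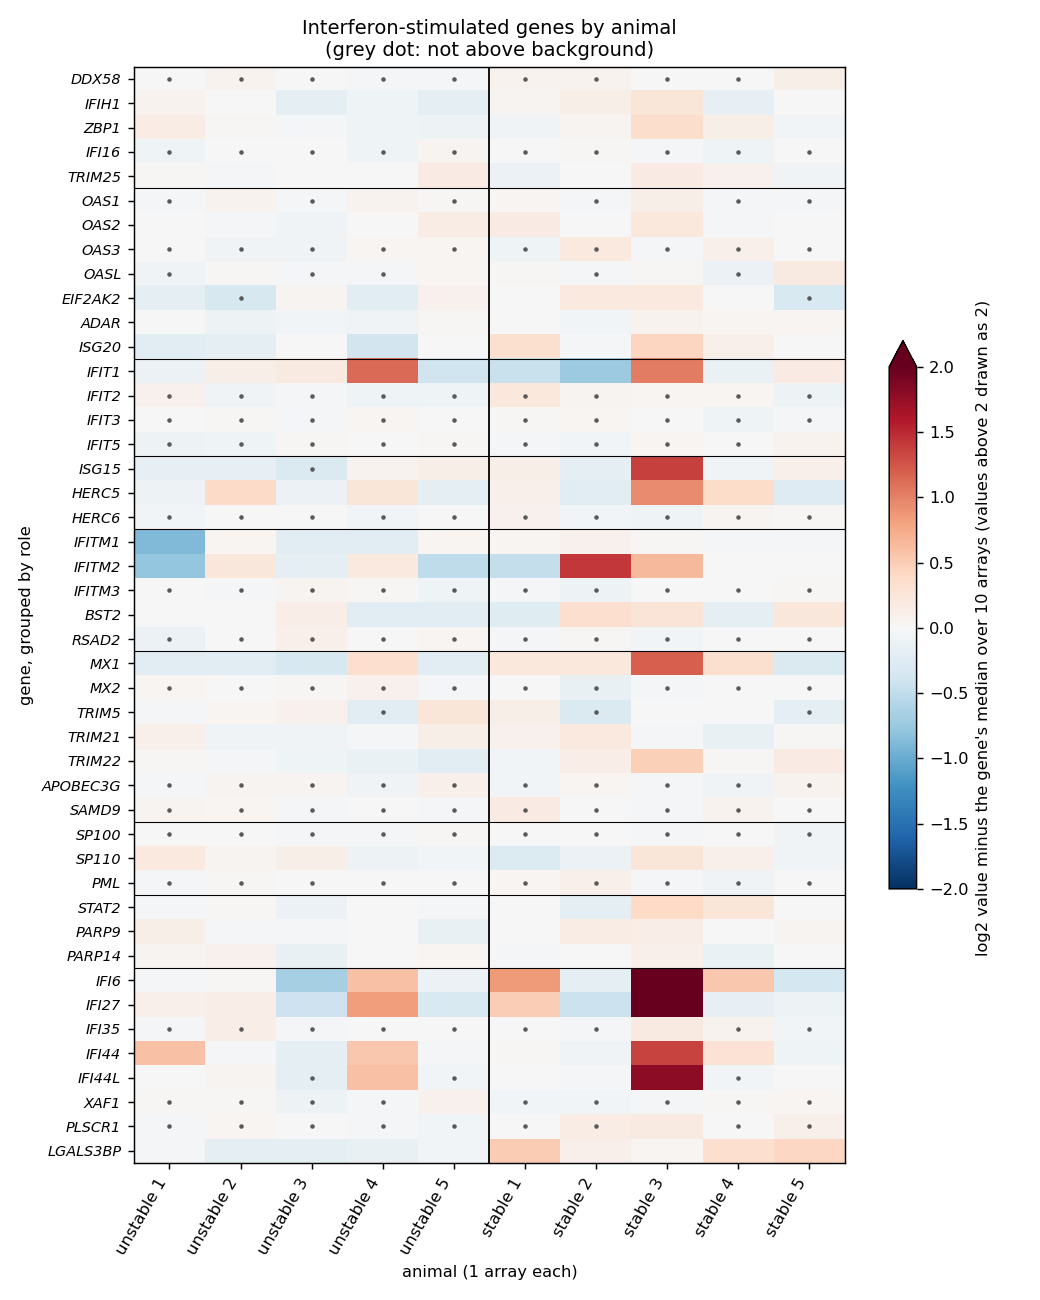
Each row is 1 of the 45 measured genes, grouped by role, and each column 1 animal, with unstable animals on the left and stable animals on the right. Colour is the log2 value minus the gene's median over the 10 arrays, drawn as 2 where it is higher, and a grey dot marks a value not above background. In the column of stable animal 3, IFI6, IFI27, IFI44L, ISG15, IFI44, MX1, IFIT1 and HERC5 are dark red; the only other cells as dark are IFITM2 in stable animal 2 and IFIT1 in unstable animal 4, and rows with dots on all arrays are nearly white.

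The comparison the study was built for is unstable against stable social conditions. None of the 45 genes passed an adjusted p of 0.05 in limma fitted over all 18622 genes, with adjusted p from 0.892 to 0.996, and 0.0% of all genes passed. At an unadjusted p under 0.05 limma gave 3 of the 45, LGALS3BP, ISG20 and TRIM22, all with lower means in unstable animals, where 5.13% of all genes had such a p and 2.73% had one with a lower mean. Means were lower in unstable animals for 32 of the 45 (71.1%), against 51.1% of all genes, and the median difference was -0.05, against -0.0015 over all genes. Of the 22 genes above background on all arrays, 18 had lower means in unstable animals, against 52.3% of 6393 such genes, with a median difference of -0.13 against -0.0052. Without stable animal 3, lower means numbered 27 of 45, against 50.8% of all genes, with a median difference of -0.02, and 15 of the 22, against 52.4%, with a median of -0.05. Within slide 1 they numbered 26 of 45, against 49.2%, and 13 of the 22, against 50.2%, with medians of -0.03 for both. These are descriptions of a list whose members share their arrays, and no test of the list was made. In whole tissue, fewer cells of a type and less RNA per cell cannot be told apart.

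LGALS3BP, a secreted glycoprotein that binds galectins and integrins, had the smallest p of the 45. It had 7.07, 6.93, 6.92, 6.95 and 7.05 in unstable animals 1 to 5, against 7.62, 7.21, 7.15, 7.44 and 7.52 in stable animals 1 to 5. The groups did not overlap, and the values in unstable animals were close to the background threshold of 6.90. The means were 6.98 ± 0.069 in unstable and 7.39 ± 0.203 in stable animals (SD, n = 5 each), a difference of -0.40 (SE 0.087, 95% interval -0.60 to -0.21, limma adjusted p = 0.892). LGALS3BP was the only one of the 45 genes whose groups did not overlap, against 0.838% of all genes, and 0.516% of all genes did so with unstable animals lower. With any 1 animal left out the difference lay between -0.46 and -0.35. Within slide 1 it was -0.55, with 1 stable animal there. With background correction of the intensities by normexp it was -0.76.

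ISG20, an exonuclease that degrades viral RNA, had 10.86, 10.90, 11.09, 10.72 and 11.08 in unstable animals, against 11.41, 11.05, 11.51, 11.18 and 11.10 in stable animals. The groups overlapped, with stable animal 2 inside the unstable range. The difference was -0.32 (SE 0.102, 95% interval -0.55 to -0.10, limma adjusted p = 0.918). TRIM22 had 10.28, 10.24, 10.18, 10.13 and 10.05 in unstable animals, against 10.21, 10.39, 10.74, 10.28 and 10.42 in stable animals. Its difference was -0.23 (SE 0.090, 95% interval -0.43 to -0.03, limma adjusted p = 0.942), and the highest value was that of stable animal 3. Without that animal the TRIM22 difference was -0.15 and that of ISG20 -0.26. Within slide 1, with 1 stable animal there, the TRIM22 difference was -0.19 and that of ISG20 -0.15.

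**Figure D2:**
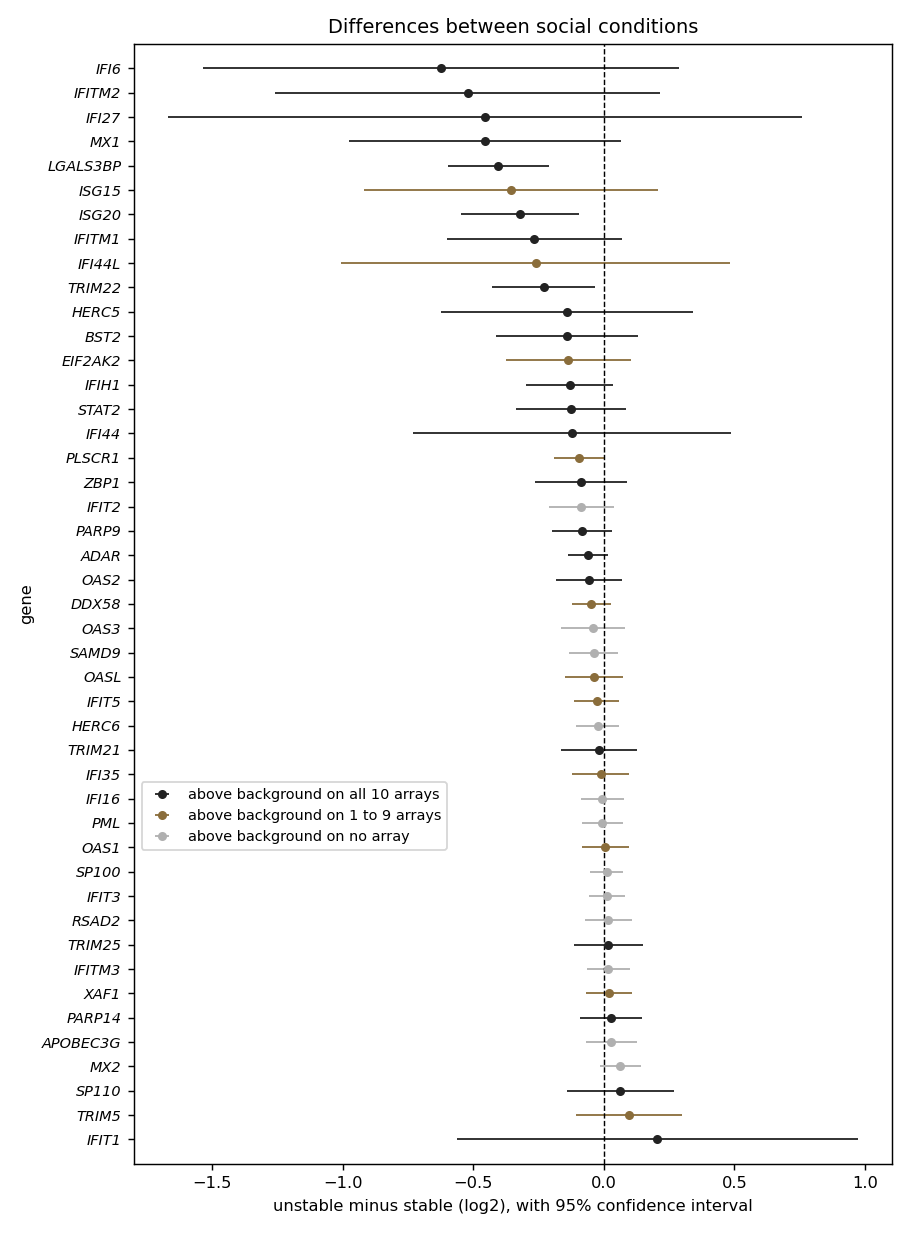
Points give the log2 difference of means, unstable minus stable, for each of the 45 genes, and lines the 95% confidence interval from limma, coloured by the number of arrays above background. Intervals of 42 genes include 0. Those of LGALS3BP, ISG20 and TRIM22 lie below it, and the longest, that of IFI27, runs from -1.67 to 0.76.

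By role, the counts of lower means in unstable animals were as follows, against 51.1% of all genes, with 0 genes past the adjusted threshold in limma in any role. The counts include genes above background on no array. Of the sensors of viral nucleic acid and their cofactors, 4 of 5 had lower means, among them IFIH1 (MDA5), which senses long double-stranded RNA, with a difference of -0.13 (SE 0.076), and ZBP1, a sensor of Z-form nucleic acid, with -0.09 (SE 0.080). Without stable animal 3 these came to -0.09 and -0.02, and within slide 1 to -0.04 and 0.10. Of the double-stranded RNA effectors and nucleases, 6 of 7 had lower means, with ADAR, which edits adenosine in double-stranded RNA, at -0.06 (SE 0.034) and EIF2AK2 (PKR), which halts translation, at -0.14 (SE 0.109) and at 0.15 within slide 1. All 3 measured genes of ISG15 conjugation had lower means, and IFIT family genes were split, 2 lower and 2 higher. Of those 3, HERC6 was above background on no array and differed by -0.02. Without stable animal 3 the ISG15 difference came to -0.08 and that of HERC5 turned to 0.05. Among 8 other interferon-induced genes 7 had lower means, including PLSCR1, a phospholipid scramblase above background on 1 array, at -0.09 (SE 0.044). Without stable animal 3, IFI27, IFI35, IFI44 and IFI44L turned to 0.11, 0.02, 0.14 and 0.10. IFI6, PLSCR1 and LGALS3BP stayed lower, and XAF1 was higher with and without that animal.

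The membrane and budding group had 3 lower of 5, with IFITM2 at -0.52 (SE 0.334), IFITM1 at -0.27 (SE 0.151) and BST2 (tetherin), which holds budding virions at the cell surface, at -0.14 (SE 0.123). The unstable mean of IFITM1 rests in part on unstable animal 1, at 9.76, where the other unstable animals had 10.43 to 10.69 and the stable animals 10.62 to 10.74. Without that animal the IFITM1 difference was -0.11. IFITM2 reached 12.03 in stable animal 2, and the other 9 arrays lay between 9.85 and 11.26. Without stable animal 2 the IFITM2 difference was -0.25. Restriction factors of the capsid, genome and cytosol were split, 4 lower and 3 higher, with MX1 at -0.45 (SE 0.235), TRIM5, which recognises retroviral capsids, at 0.10 (SE 0.092) and MX2 at 0.06 (SE 0.036). Of the nuclear body proteins, SP110 was at 0.06 (SE 0.093), or 0.13 without stable animal 3, and 1 of 3 had a lower mean. STAT2, the transcription factor of the interferon response, had 11.58 ± 0.055 in unstable and 11.70 ± 0.231 in stable animals (SD, n = 5 each), a difference of -0.13 (SE 0.095), which was -0.05 without stable animal 3. No difference in these groups passed, and their limma adjusted p values were all at or above 0.942.

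The precision of these comparisons differed between genes. The 95% interval reached 0.076 to 1.21 log2 units to either side of the difference over the 22 genes above background on all arrays, with a median of 0.209, against 0.172 over all 6393 such genes. The widest were those of genes whose levels varied most between animals. For IFI27 the interval of the difference was -1.67 to 0.76, so these arrays leave room for a large difference in either direction. ADAR had the narrowest, -0.14 to 0.02. Some of the genes were thus among the most variable on the arrays and others among the least: the SD around group means stood at percentile 99.9 among the 6393 genes for IFI27, 99.5 for IFI6, 99.2 for IFIT1, 99.0 for IFITM2, 98.0 for IFI44 and 96.4 for MX1. It stood at percentile 1.56 for ADAR, 16.5 for PARP9, 18.6 for PARP14 and 23.3 for OAS2. In all, 7 of the 22 were above the 90th percentile.

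For several of these genes 1 animal, stable 3, held the highest value. IFI27, an interferon-induced mitochondrial and nuclear-envelope protein used clinically as a blood marker of viral infection, had 8.17, 8.20, 7.66, 8.90 and 7.76 in unstable animals 1 to 5, against 8.57, 7.65, 10.87, 7.92 and 7.98 in stable animals 1 to 5. Stable animal 3 stood 1.96 log2 units above the next animal, unstable 4, and 7.40-fold above the median of the other 9 arrays. The gap was the largest that this array had over the next-highest array for any of the 18622 genes. The difference between conditions for IFI27 was -0.46 (SE 0.548, limma adjusted p = 0.973), and it turned to 0.11 without stable animal 3 and to 0.03 within slide 1.

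IFI6, a small interferon-induced membrane protein that limits flavivirus replication, had 8.34, 8.38, 7.69, 8.94 and 8.23 in unstable animals, against 9.21, 8.18, 10.40, 8.90 and 8.01 in stable animals. Stable animal 3 was again the highest, 4.18-fold above the median of the others, and the remaining animals of both groups overlapped. The difference was -0.62 (SE 0.412, limma adjusted p = 0.945). Without stable animal 3 it was -0.26, and within slide 1 it turned to 0.12. ISG15, the ubiquitin-like protein that is conjugated to viral and host proteins, had 6.97, 6.96, 6.84, 7.20 and 7.25 in unstable animals, against 7.25, 6.95, 8.50, 7.06 and 7.23 in stable animals. For ISG15 all arrays but that of stable animal 3 lay near background and overlapped between the groups. Its difference was -0.36 (SE 0.254), and without stable animal 3 it was -0.08.

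MX1 had 7.28, 7.29, 7.18, 7.83 and 7.29 in unstable animals, against 7.71, 7.71, 8.70, 7.82 and 7.21 in stable animals. Here 4 of 5 unstable animals were below 4 of 5 stable animals, with unstable 4 and stable 5 on the other side. The difference was -0.45 (SE 0.235, 95% interval -0.98 to 0.07, limma adjusted p = 0.942), and without stable animal 3 it was -0.24. Within slide 1, where 3 unstable animals stood beside 1 stable animal, the MX1 difference was 0.04, so the direction did not hold within the slide that held both groups.

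IFI44L had 6.94, 7.01, 6.76, 7.54 and 6.89 in unstable animals, against 6.96, 6.91, 8.73, 6.89 and 6.96 in stable animals. Its neighbour IFI44 had 8.69, 8.09, 7.93, 8.66 and 8.08 in unstable animals, against 8.13, 8.04, 9.46, 8.40 and 8.03 in stable animals. Both were highest in stable animal 3, and the other stable animals lay inside the range of the unstable ones. Their differences were -0.26 (SE 0.337) and -0.12 (SE 0.276), and both turned to positive values without stable animal 3, 0.10 for IFI44L and 0.14 for IFI44. Within slide 1 they were -0.05 and 0.21. HERC5 had 8.74, 9.23, 8.73, 9.09 and 8.66 in unstable animals, against 8.95, 8.62, 9.79, 9.21 and 8.60 in stable animals, with a difference of -0.14 (SE 0.218). The HERC5 difference turned to 0.05 without stable animal 3 and to 0.30 within slide 1.

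IFIT1 departed from this order. It had 7.74, 7.98, 8.05, 8.99 and 7.46 in unstable animals, against 7.42, 7.14, 8.89, 7.73 and 8.02 in stable animals. Unstable animal 4 was the highest and stable animal 3 next to it, and each stood apart from the rest of its group. The difference was 0.21 (SE 0.347, limma adjusted p = 0.978), which came to -0.03 without unstable animal 4, to 0.47 without stable animal 3 and to -0.10 within slide 1. Unstable animal 4 was also the second-highest animal for IFI27, IFI44L and MX1.

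**Figure D3:**
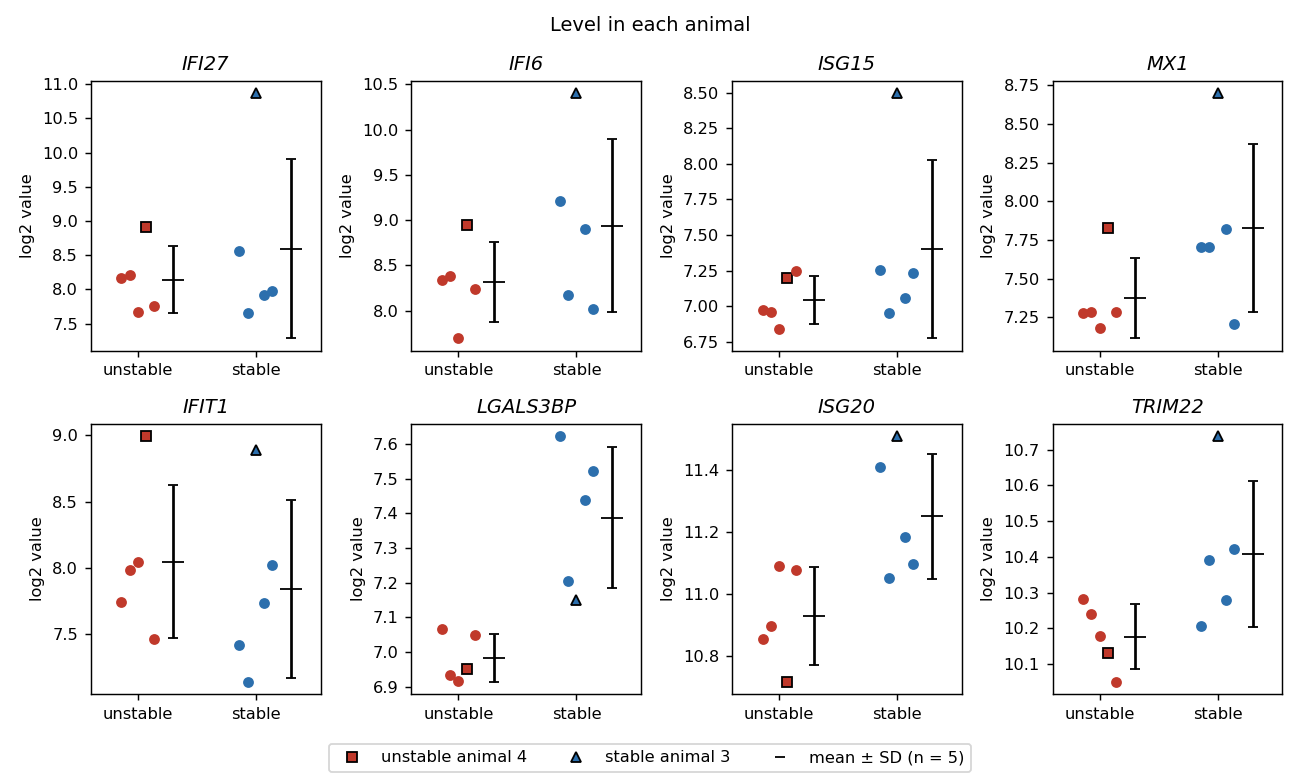
Each panel gives the log2 value of 1 gene in every animal, unstable on the left and stable on the right, with the mean and SD of 5 animals beside the points; the vertical scales differ and do not start at 0. Stable animal 3 (triangle) is the highest animal for IFI27, IFI6, ISG15, MX1, ISG20 and TRIM22, is second to unstable animal 4 (square) for IFIT1, and is the lowest stable animal for LGALS3BP at 7.15.

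That array was singled out after its values were seen, so what follows describes it and tests nothing. Of the 45 genes 20 had their highest value there, against 10% of all genes, and of the 22 above background on all arrays 15 did, against 11.0%. The animal with the next-largest count was stable 2, with 8 of 45, against 13.2% of all genes. The mean over the 45 genes was 8.12 in stable animal 3 and 7.68 to 7.80 in the other 9 animals. A gap of more than 0.5 log2 units over the next-highest array was seen for 29 genes in stable animal 3, 0.156% of all, and 7 of them were among the 45: IFI27, ISG15, IFI44L, IFI6, MX1, IFI44 and HERC5, at ranks 1, 2, 3, 4, 9, 14 and 25. Stable animals 1, 2 and 4 shared the slide of stable animal 3, and their IFI27 values were 8.57, 7.65 and 7.92.

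The list was not raised as a whole in that animal. STAT2 at 12.01, ZBP1 at 7.90 and ADAR at 7.58 were also highest there, but by only 0.15, 0.21 and 0.04 over the next array. LGALS3BP at 7.15 and TRIM21, a cytosolic antibody receptor, at 9.56 were inside the range of the others. After the 7 genes with a gap above 0.5, the next was TRIM22, 0.32 above the next array.

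Markers of other cells moved in the same array. The mean of 10 macrophage and monocyte genes was 9.996 in stable animal 3, against 9.22 to 9.62 in unstable animals and 9.04 to 9.61 in the other stable animals. Of those 10 genes 7 were above background on all arrays, and MSR1 and LYZ on none. The complement genes C1QA and C1QC were at 10.66 and 10.98 in stable animal 3. C1QB, CSF1R and MARCO were also highest there, but CD14, CD68 and CD163 were inside the range of the other animals. The mean of 6 neutrophil genes was 7.86 in stable animal 3, against 7.13 to 7.32 in unstable animals, 8.16 in stable animal 2 and 7.23 to 7.36 in stable animals 1, 4 and 5. Of those 6 genes only 2 were above background on all arrays, and S100A12 was on none. The mean of the 4 stroma genes CCL21, CCL19, CXCL13 and PDPN was 9.81 there, against 10.42 to 10.57 in unstable animals and 10.74 to 10.95 in the other stable animals. CCL21, CCL19 and CXCL13 were lowest in stable animal 3, but PDPN, at 7.66, was inside the range of the other animals. Plasmacytoid dendritic cells, the strongest producers of type I interferon, had a marker mean of 7.53 in stable animal 3, against 7.496 to 7.61 in unstable and 7.57 to 7.71 in the other stable animals, with CLEC4C, IL3RA and PTCRA above background on no array. In unstable animal 4 the adipocyte list stood at 8.44, against 7.72 to 7.95 in the other unstable animals and 7.53 to 8.03 in stable animals. Only 2 of the 6 adipocyte genes were above background on all arrays. The part of these differences in tissue makeup in the interferon-stimulated genes was not tested.

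**Figure D4:**
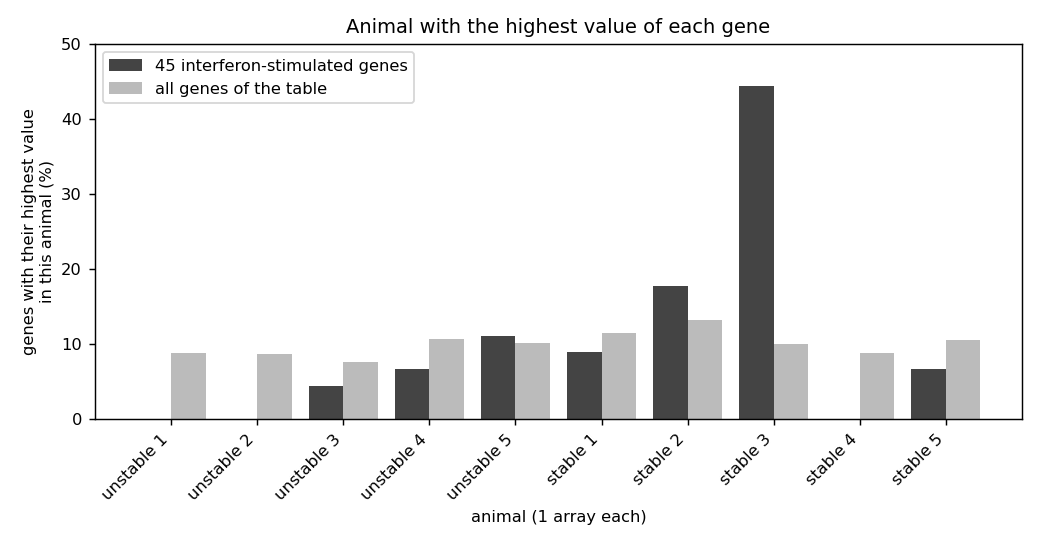
Bars give the share of genes, in percent, that had their highest value in each animal, dark for the 45 interferon-stimulated genes and light for all 18622 genes, with unstable animals on the left. The dark bar of stable animal 3 stands at 44.4%, against 10% for all genes, and no other dark bar exceeds 17.8%.

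The genes were then compared by how they varied together over the 10 arrays. Among the 22 above background on all arrays there are 231 pairs, whose median Pearson r was 0.32, with 81.8% above 0 and 19.0% above 0.6. Over all pairs of the 6393 genes above background on all arrays, the median was 0.003, with 50.3% above 0 and 4.36% above 0.6. The pairs share their 10 arrays and many share genes, so these values are descriptive. The highest was MX1 with IFI6 at 0.93, and IFI6 with IFI27 stood at 0.91. Without stable animal 3 the median over the 231 pairs was -0.003, with 49.8% above 0 and 6.06% above 0.6, against 5.51% above 0.6 over all genes. With any other single animal left out, the median lay between 0.30 and 0.38. The shared variation of the list as a whole therefore rested on stable animal 3.

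**Figure D5:**
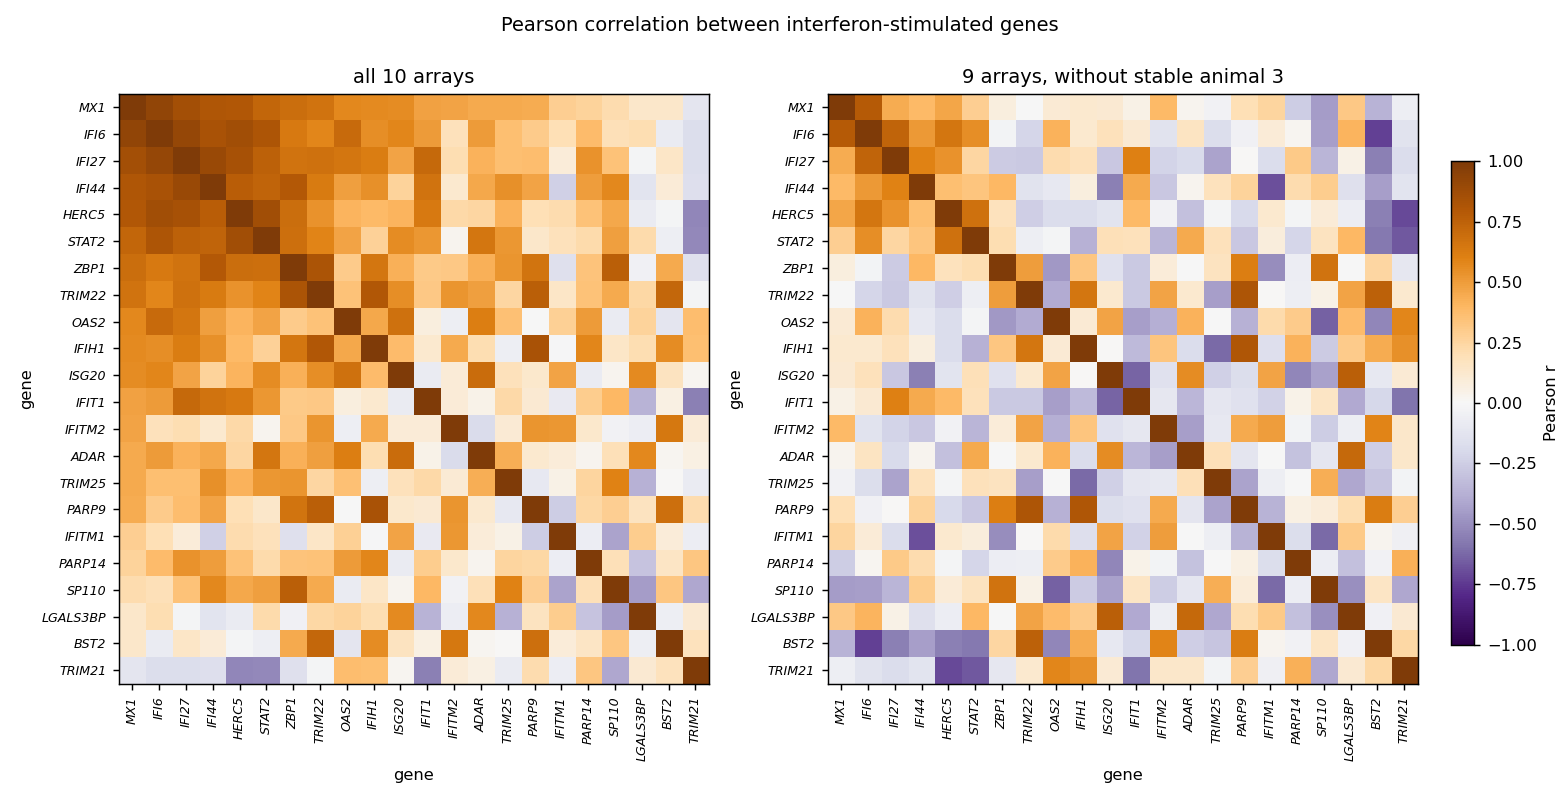
Cells give Pearson r between the log2 values of 22 genes above background on all arrays, over 10 arrays on the left and over the 9 without stable animal 3 on the right, in the same gene order. The orange block at the upper left, led by MX1 and IFI6 at 0.93, shrinks to MX1, IFI6, IFI27 and a few others on the right. There the median of all pairs is -0.003, and the highest pair is TRIM22 with PARP9, at 0.81.

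MX1, the first widely used interferon marker above background on all arrays, was set against each of the 8315 other genes above background on 3 or more arrays, 27 of which belong to the list. Over those 27 the median r with MX1 was 0.50, against -0.02 over all genes so compared, and 24 were above 0. None passed in a permutation test after Benjamini-Hochberg adjustment over the 8315 genes, where 0.0% of all genes passed, with a smallest adjusted p of 0.483. At an unadjusted permutation p under 0.05, 9 of the 27 had a positive r, against 2.39% of the 8315 genes. With Spearman's rho 3 of the 27 did, against 2.29%. Without stable animal 3 the median r was 0.12, against -0.02 over all genes compared, and 19 of the 27 were above 0. Only 1 of the 27, IFI6, then had such a p, against 2.29%. Leaving out the 2 arrays farthest from the median of MX1, stable 3 and unstable 4, gave a median of 0.19, against 0.0009 over all genes compared. Without unstable animal 4 alone the median over the 27 was 0.59. The relation of the list with MX1 therefore rested largely on stable animal 3.

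IFI6 had r = 0.93 (two-sided permutation p = 0.00121, adjusted 0.483) and rho = 0.78 (two-sided permutation p = 0.0103, adjusted 0.741), and its r without stable animal 3 was 0.79. IFI44L, IFI27, ISG15, IFI44 and HERC5 had r of 0.87, 0.86, 0.83, 0.81 and 0.80 with MX1, which came to 0.48, 0.44, 0.25, 0.39 and 0.46 without that animal. STAT2 had r = 0.73, and 0.29 without it. IFIT1 had r = 0.48 and rho = 0.05 over all arrays. Its r was 0.93 once slide means were removed, 0.05 without stable animal 3 and -0.65 without both stable 3 and unstable 4, so its sign and size changed with the arrays used. LGALS3BP had r = 0.14 and TRIM21 had r = -0.12, so the gene with the smallest p between conditions was not among those that went with MX1. The slides held 4, 4 and 2 arrays, too few for a correlation within each.

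Of genes outside the list, those most like MX1 over the 10 arrays by Pearson r were B2M, the light chain of class I histocompatibility molecules, MT1E, a metallothionein, CPB1, a carboxypeptidase, ACTA2, the smooth muscle actin, ADPGK, an ADP-dependent glucokinase, and ZNF358, a zinc finger protein. B2M had r = 0.94 and rho = 0.94 (two-sided permutation p = 8e-05 and 0.00025, adjusted 0.333 and 0.656), and r = 0.90 without stable animal 3. Its values were 12.72 to 12.91 in unstable animals and 12.80 to 13.09 in stable animals, with a difference of -0.13 (SE 0.055, limma adjusted p = 0.942). The other 5 had r from 0.90 to 0.92, and 0.69 to 0.86 without stable animal 3. None of these passed the adjusted threshold.

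The genes above and below the antiviral set in the pathway gave no passing difference either. Of 17 measured type I interferon genes, the ligands, 15 were above background on no array, and the exceptions were IFNA8, on 10 arrays, and IFNA7, on 2. IFNA8 had 7.45 ± 0.077 in unstable and 7.58 ± 0.107 in stable animals (SD, n = 5 each), a difference of -0.13 (SE 0.056, limma adjusted p = 0.942). Within slide 1 the IFNA8 difference was -0.0021, and without the 3 older unstable animals -0.20. The interferon alpha genes are close copies of one another, so the member measured by this probe is uncertain. Of 11 receptor, kinase and transcription factor genes, 6 had lower means in unstable animals, against 51.1% of all genes, 0 passed in limma and 3 had an unadjusted p under 0.05, against 5.13%. IRF1 had 7.87 ± 0.113 in unstable and 8.04 ± 0.072 in stable animals (SD, n = 5 each), IRF7, the factor that amplifies interferon production, differed by -0.16 (SE 0.058) and was above background on 3 arrays, and IRF3 differed by -0.15 (SE 0.058). These had the smallest unadjusted p of the pathway genes, 0.0141, 0.0217 and 0.0305 in limma, with adjusted p of 0.942. Within slide 1 IRF1, IRF7 and IRF3 differed by -0.29, -0.08 and -0.27. Without the 3 older unstable animals they differed by -0.07, -0.11 and -0.11. The IRF9 gene, listed as ISGF3G, was above background on no array. Of 15 sensing and induction genes, such as TLR7, TBK1 and TMEM173 (STING), 10 had lower means, against 51.1%, 0 passed in limma and 0 had an unadjusted p under 0.05.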

How the data were processed

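Total RNA of 10 lymph nodes was labelled with biotin and hybridised to Illumina bead arrays with human probes, 1 array for each animal. The authors deposited probe intensities that had not been normalized between arrays, and GenomeStudio is named, without a version, in the submitters' processing notes. A second deposited table gives log2 values of 18622 gene symbols, with nearly 1 distribution on all arrays. For its normalization and its rule for combining probes, the sources used here give nothing. The lowest intensity on an array was 75.7 to 83.5, so no background had been subtracted. After matching the tables, 34 of the 45 measured genes equalled 1 probe within 0.005 log2 units on all arrays, 2 (OASL and XAF1) the mean of 2 probes, and 9 neither.

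The log2 table was fitted whole in R 4.3.3 by limma 3.58.1 (two-sided, lmFit then eBayes, without covariates), with Benjamini-Hochberg adjustment over 18622 genes and a threshold of 0.05. Correlations with MX1 used 100000 permutations. The members and lists were chosen with earlier results of these data known. Genes named with values were MX1, the 8 members of smallest p, the 6 of highest mean, the 6 with the largest SD around group means among those above background on 3 or more arrays, the 6 other genes most like MX1 and 4 pathway genes of smallest p; others are named within their roles or for their value in stable animal 3, after values were seen. Replicate numbers did not pair animals: deviations of animals with the same number correlated at -0.09 to 0.03. Alternatives were slide 1 alone, slide as a block (fixed, then random), age label as covariate, the 3 older animals left out, the replicate block, trend and robust eBayes, array weights, each animal left out, filters on background, and the intensity table with and without normexp (offset 16). The fit was tested on simulated data. Symbols are those of the deposited table and can be old; 44 of the 47 were found as symbols in a RefSeq macaque gene table, 1 (DDX58) only as a synonym, and 2 were not found or ambiguous. One pathway gene is not reported here and was left out of the counts of its list. No genome was given and no sequence is printed. Figures were drawn with matplotlib 3.10.9.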

Additional observations from a re-analysis of the deposited data

Results flagged for a closer look

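Each of 56 groups of 5 animals was checked for an animal whose gap to its nearest neighbour, divided by the range of the group, exceeded Dixon's critical value of 0.71. Chance flags about 1 in 20 groups, and 7 were found, 4 of them in stable animal 3. The groups are of the same 10 animals and many of the genes vary together. The flags are therefore not independent, and no excess over chance was tested. In stable animal 3 these were IFI27 at 10.87, ISG15 at 8.50, IFI44 at 9.46 and IFI44L at 8.73, each far above the other stable animals. Among unstable animals, MX1 stood apart in unstable animal 4 at 7.83 and TRIM25, a ligase that activates RIG-I, in unstable animal 5 at 9.25, both the highest of their group. IFITM1 stood apart in unstable animal 1 at 9.76, the lowest of its group.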

How the results depend on the processing

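No member passed in limma under any of 22 alternatives, with smallest adjusted p values of 0.352 to 1.0 across them, the lowest without stable animal 3. Of 428 values of 20 named genes under alternatives, 412 kept their direction. The replicate block, trend and robust eBayes and the filters on background leave each difference as it was. Part of that count was thus fixed in advance, and it does not measure robustness. With slide as a fixed block and within slide 1 alone, which give the same estimates, MX1 came to 0.0438, IFI27 to 0.0330, IFI6 to 0.12, IFI44 to 0.21 and IFIT1 to -0.10. SP110 came to -0.0158 with the age label as covariate and to -0.0566 without the 3 older animals. With any 1 animal left out, IFIT1 ran between -0.0314 (without unstable animal 4) and 0.468, IFI27 between -0.691 and 0.113, IFI44L between -0.389 and 0.0996, and IFI44 between -0.222 and 0.142, the positive values of the last 3 without stable animal 3. The replicate block gave 0 members past the threshold, 32 with lower means and a smallest limma adjusted p of 0.835, and changed no call. Lower means numbered 18 when only genes above background on all arrays were kept, because only 22 members were then fitted, and 27 to 35 with any 1 animal left out, with median differences of -0.06 to -0.02, the 27 and the -0.02 without stable animal 3. The median r between members was 0.21 with Spearman's rho and -0.00314 to 0.384 with any 1 animal left out. The median r with MX1 was 0.31 with Spearman's rho, 0.19 without the 2 arrays farthest from the median, and 0.12 to 0.59 with any 1 animal left out. Other causes of these shifts were not tested. Of the members, 12 gave no signal above background, and 5 animals a group limit the rest.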

Other observations

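IFITM2 was highest in stable animal 2, at 12.03, and so was the neutrophil list. The neutrophil list, with 2 of its 6 genes above background on all arrays, stood at 8.16 in stable animal 2. It stood at 7.13 to 7.32 in unstable animals, 7.86 in stable animal 3 and 7.23 to 7.36 in stable animals 1, 4 and 5. Its part in the IFITM2 value was not tested. Genes outside the list also stood out in stable animal 3, and were named after their values were seen: IFIT1L, an IFIT relative, exceeded the next array by 0.85 log2 units, the myeloid receptor CD33 by 1.03, and the complement genes C1QA and C1QC by 0.81 each.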
